A study of Drosophila melanogaster with 2 samples.

Results

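The 38 genes described here encode the contractile filaments of fly muscle, the Z-discs that hold them and the adhesion complexes that tie muscles to their attachment sites. They were chosen by name, with earlier results of these data known, from the 13986 protein-coding genes of the dm6 annotation. All 38 were found, 37 by the listed symbol and 1, Unc-89, under its current symbol Obsc. Their role groups were thin filament (14 genes), thick filament with its associated proteins (9), Z-disc (7) and attachment (6), with Msp300 and SERCA outside these groups. Binding of the Snail-family zinc finger protein Kahuli (Kah) had been measured by ChIP-seq in whole Drosophila melanogaster embryos of 0 to 16 h, with males and females pooled. The line expressed Kah fused at its C-terminus to green fluorescent protein (GFP). There was 1 group, with 2 biological replicates, so no treatment or genotype could be compared. The labels name kah as the antibody target, while their free text calls both libraries an input control; the values were treated as ChIP-seq peaks, which is how the deposited file listing describes them.

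In the sarcomere, thin filaments of actin, tropomyosin and troponin slide along thick filaments of myosin, and calcium bound by troponin C permits the sliding. Alpha-actinin, titin-like and Zasp proteins anchor thin filaments at the Z-disc. Integrins, with talin, vinculin and the Ilk-parvin complex on their inner side, pass the force on to tendon cells through the matrix. Muscle cells form only part of an embryo, and strong binding in few cells and weak binding in many cannot be told apart in chromatin from whole embryos. The age range also joins stages before and after muscle differentiation.

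Each replicate had 30000 candidate peaks, and 30000 more were called on both replicates together (pooled candidates). From the pooled list the authors kept 4105 summits by the irreproducible discovery rate (IDR), which compares how the replicates rank their peaks. These IDR summits were the 4105 strongest pooled candidates, with signals of 149.7 or more. Signal is the value given by the authors' peak caller, on a scale not stated in the sources used here, and the read depth of the libraries is unknown. Of the 4105 IDR summits, 3902 had a summit within 100 bp in both replicate lists.

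Kah-GFP summits lay near most of these muscle genes, though unevenly between the parts of the sarcomere. At promoters, meaning within 500 bp of a transcription start site (TSS) of the gene, 16 of 38 members (42.1%, exact 95% interval 26.3 to 59.2%) had an IDR summit, against 17.0% of all protein-coding genes. Inside the gene or within 5000 bp of it, called the window here, 24 of 38 (63.2%, 46.0 to 78.2%) had an IDR summit, against 44.2% of all genes. With a summit in both replicate lists required, these counts were 15 at promoters, against a background of 16.3%, and 24 in the window, against 43.1%. Pooled candidates of any strength lay at the promoters of 32 of 38 members, against 53.3% of genes, and in the windows of 34, against 85.9%. Intervals are Clopper-Pearson and cover counting error only. No test was run on the list, which had been chosen with earlier results of these data known.

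**Figure D1:**
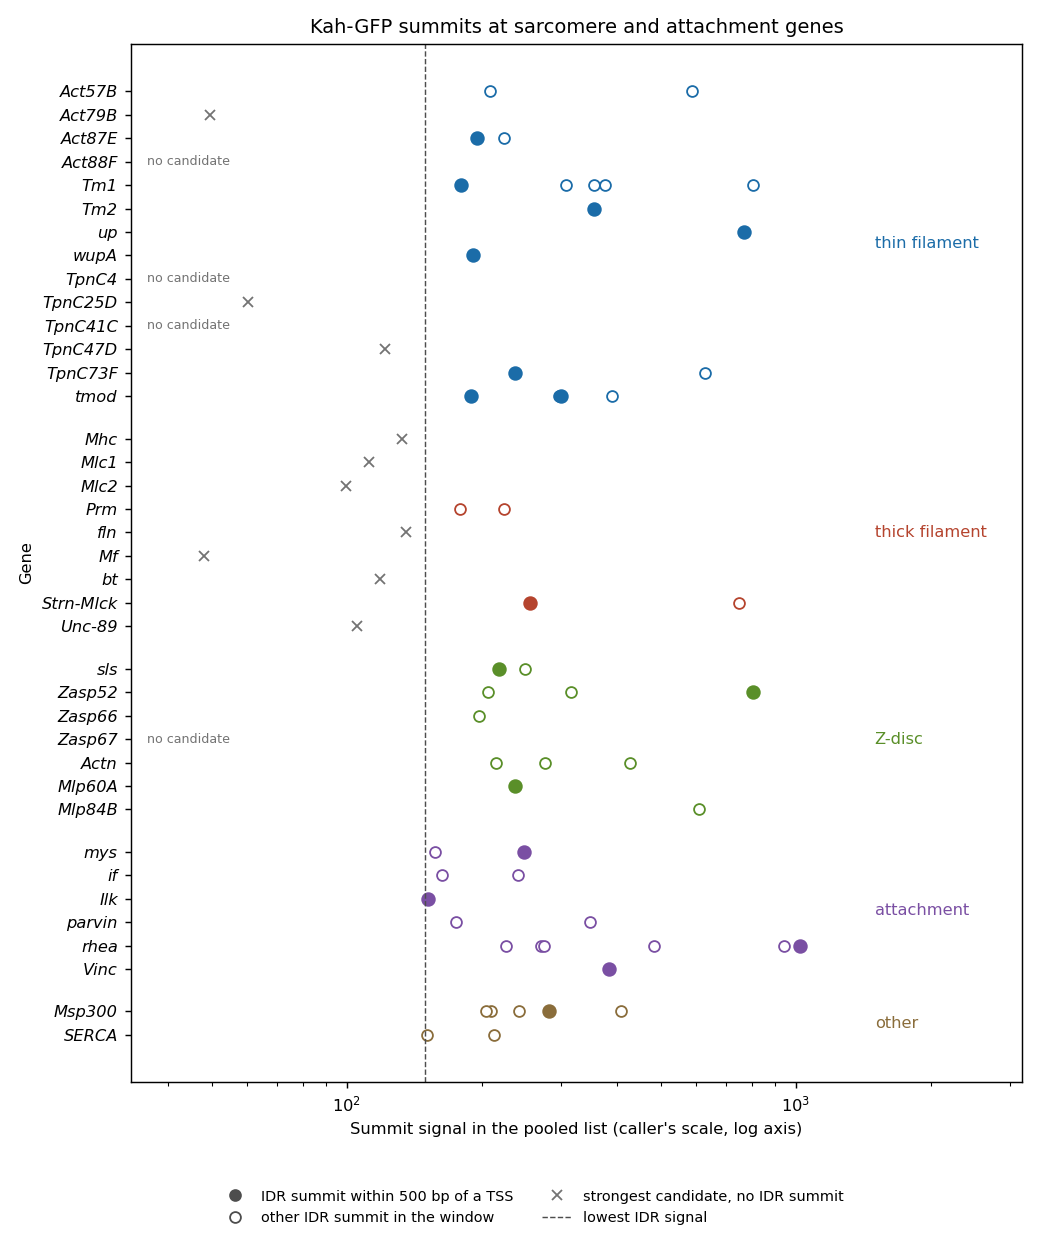
Signal of every IDR summit in the window of each member gene, on a log axis in the caller's units, with genes grouped by role. Filled circles are summits within 500 bp of a TSS, open circles are other IDR summits, crosses mark the strongest candidate of genes without an IDR summit, and the dashed line is the lowest IDR signal (149.7). All 6 attachment genes have an IDR summit, while 7 of 9 thick filament genes have crosses to the left of the line.

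Gene size and the number of start sites differ between these genes and the rest, so both were set beside the counts. Members had a median length of 8849 bp and 2.92 TSSs each, against 2163 bp and 1.40 for all genes. Of single TSSs, 24 of 111 in members (21.6%) had an IDR summit within 500 bp, against 15.8% of all 19649. Among genes with 4 or more TSSs, 7 of 10 members and 49.5% of all genes had an IDR promoter summit, and among genes with 1 TSS, 3 of 12 members and 12.2% of all genes did. Among genes longer than 20 kb, 8 of 10 members and 60.6% of all genes had an IDR summit in the window. Up to 5 kb of gene length it was 7 of 16 members and 39.7% of all genes. Per 10 kb of window, members held 0.512 IDR summits and all genes 0.458, with a Poisson interval for members of 0.385 to 0.668 that contains the value of all genes. A summit was counted once for every gene window that held it. For all genes this gave 10862 counts from 3935 distinct summits, and for members 54 from 53. The 0.458 is thus a value over overlapping windows and not a density along the genome.

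Of the 4 role groups, attachment genes had the highest share with an IDR summit in the window and thick filament genes the lowest. IDR summits lay in the windows of 6 of 6 attachment genes (54.1 to 100%), 6 of 7 Z-disc genes (42.1 to 99.6%), 8 of 14 thin filament genes (28.9 to 82.3%) and 2 of 9 thick filament genes (2.81 to 60.0%). Promoter summits were found at 4 of 6 attachment, 3 of 7 Z-disc, 7 of 14 thin filament and 1 of 9 thick filament genes. Of all protein-coding genes, 17.0% had an IDR summit at a promoter and 44.2% in the window. Both shares lie inside the thick filament intervals, which were 0.281 to 48.2% at promoters and 2.81 to 60.0% in the window. Summits per 10 kb of window were 0.984 for attachment, 0.437 for Z-disc, 0.675 for thin filament and 0.156 for thick filament genes, against 0.458 for all genes. The Poisson interval of the thick filament density (0.0424 to 0.399) lies below that of the attachment genes (0.538 to 1.65) and nearly meets that of the thin filament genes (0.400 to 1.07). The 0.458 of all genes lies above the thick filament interval, below the attachment interval and inside those of the thin filament and Z-disc genes (0.218 to 0.782 for Z-disc). These intervals treat summits as independent, which neighbouring summits of 1 gene need not be, and 6 of the 14 attachment summits were those of rhea. Attachment and thick filament genes also have the highest and lowest of the 4 densities, so the gap between their intervals is no test. The intervals of the window counts of these 2 groups share only the stretch between 54.1 and 60.0%, and those of the promoter counts overlap more. The median gene length was 8407 bp for attachment, 14443 bp for Z-disc, 3421 bp for thin filament and 12453 bp for thick filament genes, and its part in these counts was not tested. When summits at the promoter of another gene were left out, a setting chosen after seeing the data, the density was 0.492 for attachment, 0.398 for Z-disc, 0.525 for thin filament and 0.0779 for thick filament genes. Attachment genes were then no longer the densest group, and 4 of 6 of them had an IDR summit in the window, against 22.8% of all genes. No intervals were worked out for the densities of this setting, so whether attachment and thick filament genes still differed was not tested. The density of all genes under this setting is not given here either.

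**Figure D2:**
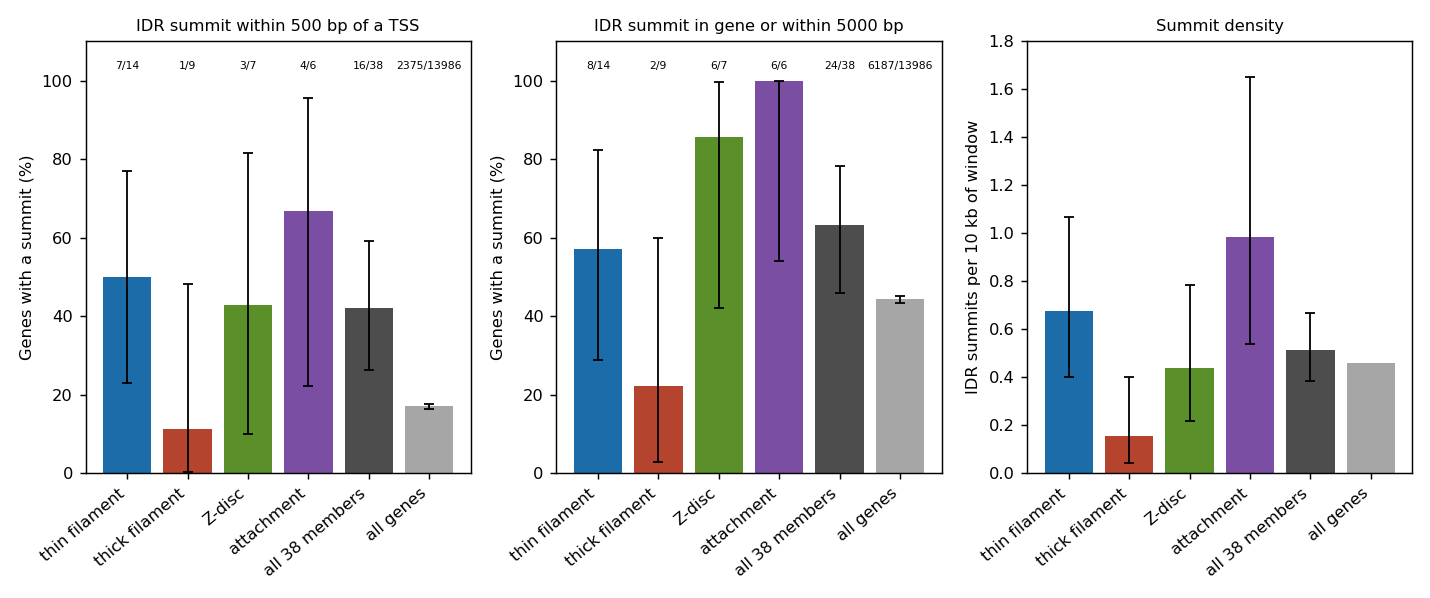
Percent of genes with an IDR summit at a promoter (left) and in the window (centre), and IDR summits per 10 kb of window (right), for the 4 role groups, all 38 members and all 13986 protein-coding genes. Bars are values, error bars are exact 95% Clopper-Pearson intervals in the left and centre panels and exact Poisson intervals on the right (none is drawn for all genes), and the thick filament bar is the lowest in each panel.

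The Snail-family core site CAGGTG lay within 50 bp of 7 of 53 member summits (13.2%, exact interval 5.48 to 25.3%), against 9.87% of all IDR summits. These 7 were at Tm2, wupA, TpnC73F, tmod (2 summits), Actn and rhea, so 5 of the 17 thin filament summits held it and 0 of the 4 thick filament summits. The shares were 29.4% for thin filament (10.3 to 56.0%), 9.09% for Z-disc and 7.14% for attachment summits. With 4 summits, the thick filament interval reaches 60.2%, so its 0 says little. The shares of the overlapping word ACAGGT were 7.55% against 9.48%, of the Mef2-like core TATTTA 24.5% against 23.9%, and of the Tinman site CACTTG 11.3% against 10.5%. GAGAGA of GAGA factor gave 5.66% against 7.87% and the DREF core ATCGAT 3.77% against 4.17%. For the 53 member summits together, every interval contains the value of all IDR summits. The thin filament interval for CAGGTG starts at 10.3%, just above the 9.87% of all IDR summits. This difference was not tested. Motifs were searched on both strands.

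Sequences are shown for 3 member summits with CAGGTG, to set the site beside the summit, and for 3 strong or promoter summits without it. Each is 101 bases of the dm6 plus strand, with the summit as the middle base, and capitals mark CAGGTG or its reverse complement, ACAGGT where it overlaps the site, and TATTTA. Only windows free of annotated UTR were used. The rhea promoter window is chr3L:8546543-8546643 and the site lies 7 bp from the summit. The Actn intron window is chrX:2035509-2035609, with the site at 15 bp. The tmod intron window is chr3R:30545088-30545188, with the site at 13 bp. The up promoter window, chrX:13602602-13602702, holds neither word. The Act87E promoter window is chr3R:13425567-13425667 and the Mlp84B window chr3R:7108996-7109096, both rich in A and T with a TATTTA core.
rhea: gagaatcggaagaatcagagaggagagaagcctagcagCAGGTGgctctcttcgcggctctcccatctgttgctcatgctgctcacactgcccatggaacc
Actn: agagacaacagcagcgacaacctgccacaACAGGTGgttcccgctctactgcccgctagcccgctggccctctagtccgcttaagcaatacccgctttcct
tmod: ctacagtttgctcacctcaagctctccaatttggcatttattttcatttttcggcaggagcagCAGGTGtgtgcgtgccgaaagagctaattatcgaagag
up: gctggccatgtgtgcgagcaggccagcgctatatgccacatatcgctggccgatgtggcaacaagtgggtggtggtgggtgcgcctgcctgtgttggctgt
Act87E: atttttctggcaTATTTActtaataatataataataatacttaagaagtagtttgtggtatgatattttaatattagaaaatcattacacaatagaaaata
Mlp84B: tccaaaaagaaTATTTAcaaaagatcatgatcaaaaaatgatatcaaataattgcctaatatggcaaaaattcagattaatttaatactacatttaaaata

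With 2 flanking bases, the sites in these windows were agCAGGTGgc for rhea, aaCAGGTGgt for Actn and agCAGGTGtg for tmod. The tmod promoter summit had cgCAGGTGcg at 16 bp, on the minus strand. At wupA the site was ggCAGGTGgg, 6 bp from the summit and the nearest of the 7. A match shows that these letters are present and not that Kah bound there.

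Talin had the strongest and the most numerous summits of the attachment genes. The talin gene rhea (chromosome 3L, 8545001 to 8574409, plus strand), which links integrin tails to actin, had 6 IDR summits in its window, 4 of them inside the gene. The highest, in an intron 82 bp upstream of an internal TSS, had a pooled signal of 1020.0 (rank 128 of 4105), with 430.3 in replicate 1 and 594 in replicate 2. That TSS is the start of transcripts RD, RH and RI, 1 of 4 TSSs of the gene, and the other 3 had no IDR summit within 500 bp. The remaining summits inside the gene had signals of 226, 271 and 275. A pair beyond its 3' end, with 939.9 and 483, lay at the promoter of CG6638 and cannot be assigned to rhea. Vinc, which encodes the talin partner vinculin, had a single IDR summit in an intron 106 bp upstream of a TSS, with 383 in the pooled list, 202 in replicate 1 and 183 in replicate 2.

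The other attachment genes had weaker summits, several of them shared with neighbours. The promoter summit of mys, the beta-integrin subunit gene, lay 237 bp downstream of its TSS and also at the promoter of fs(1)h, with a pooled signal of 248. Its replicate signals were 89.3 and 47.2 in replicates 1 and 2, so the ratio of replicate 2 to replicate 1 lay 1.73 SD from the median ratio of all IDR summits. A further mys summit (157), in an intron of fs(1)h, was absent from the list of replicate 1. The alpha-integrin gene if had summits of 240.3 and 163 beyond its 3' end and none at its 3 TSSs. The stronger lay in an intron of goe and the weaker at the promoter of goe. Ilk, encoding integrin-linked kinase, had 152 at a promoter shared with Trmt112, with 79.5 and 78.4 in replicates 1 and 2. This is just above the lowest IDR signal, and no summit remained in its window when the strongest candidates of replicate 2 alone were used. Both summits near parvin, a partner of Ilk, lay at other promoters, the stronger (349) at that of Abcd3 and the weaker (175) at those of COX6B, Rpp20, CG18809 and CG33932.

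**Figure D3:**
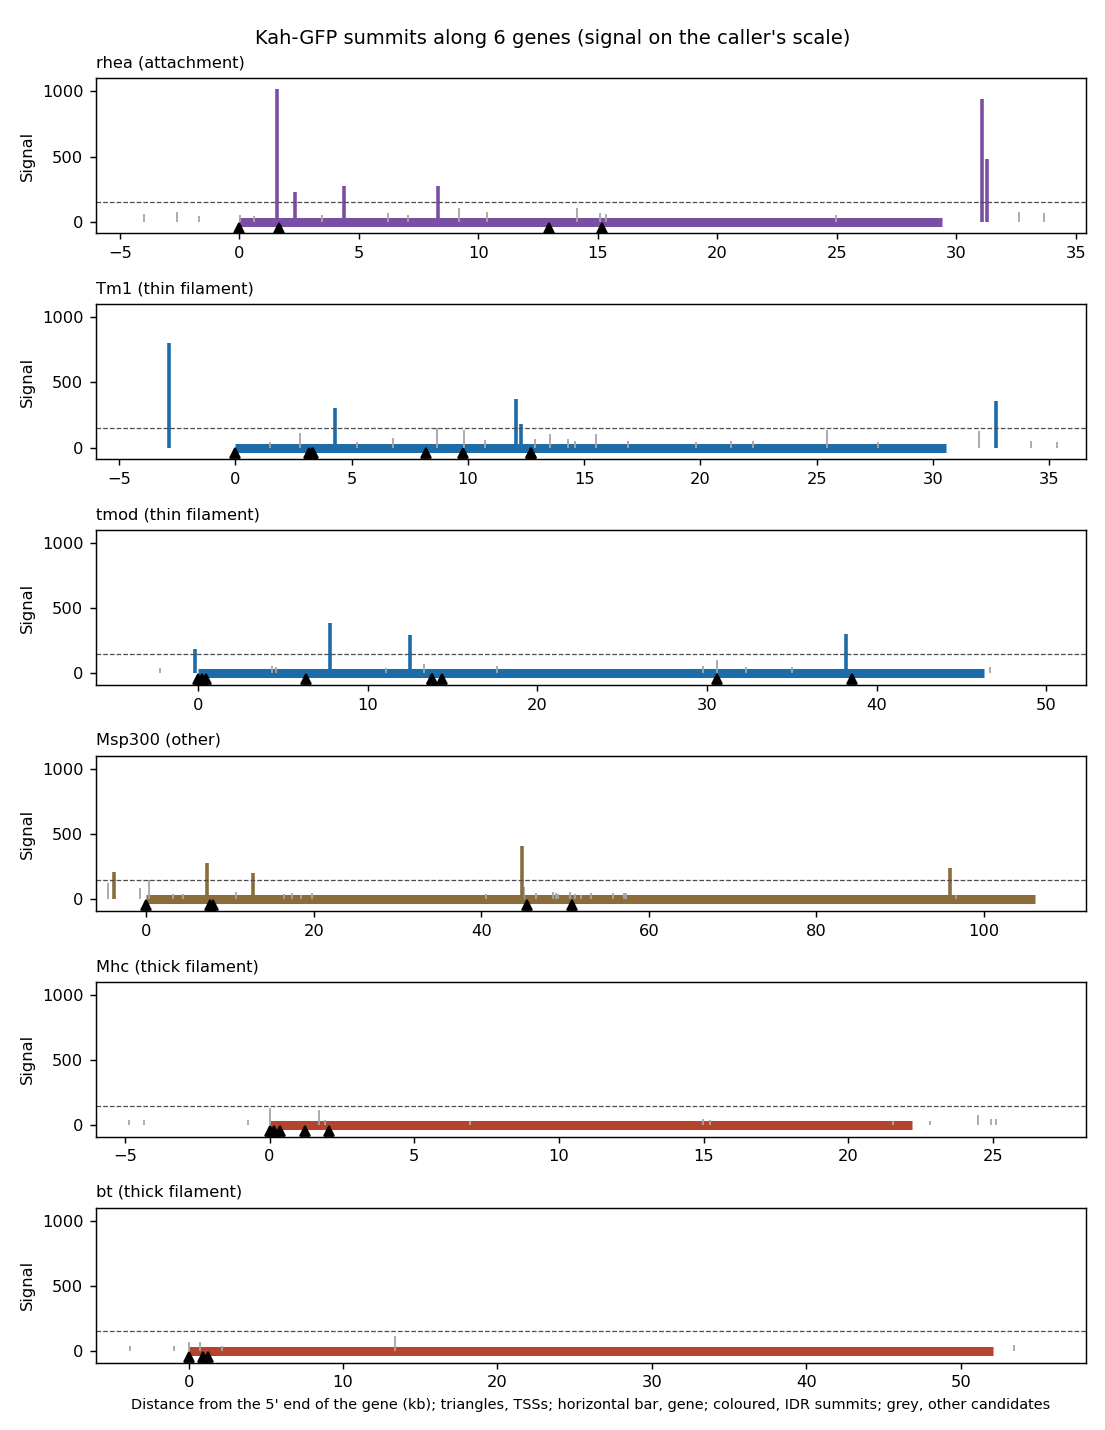
Summits along rhea, Tm1, tmod, Msp300, Mhc and bt, with distance in kb from the 5' end of each gene on the horizontal axis and pooled signal in the caller's units on the vertical axis. Coloured lines are IDR summits, grey lines other candidates, triangles TSSs, horizontal bars the genes and dashed lines the lowest IDR signal. The rhea summit of 1020.0 stands beside an internal TSS, and no line of Mhc or bt reaches the dashed line.

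Among thin filament genes, the troponin T, troponin I and both tropomyosin genes carried promoter summits, as did 1 of 5 troponin C genes. The troponin T gene up (chromosome X, 13593474 to 13602578, minus strand) had a summit 74 bp upstream of a TSS with a pooled signal of 768, from 334 in replicate 1 and 437 in replicate 2. The troponin I gene wupA had 191 at 16 bp upstream of a TSS, with 94.3 and 98.3 in replicates 1 and 2. Both genes of the inhibitory and tropomyosin-binding troponin subunits thus had their only IDR summit at a promoter. The neighbouring tropomyosin genes Tm1 and Tm2 on chromosome 3R shared a summit of 356, with 176 in replicate 1 and 185 in replicate 2. It lay 241 bp downstream of a Tm2 TSS, in a 5' UTR, and 2139 bp beyond the 3' end of Tm1.

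Tm1 had 5 IDR summits in its window, but 4 of them were also at the promoter of another gene. The strongest (805, with 483 and 327 in replicates 1 and 2) lay 2872 bp upstream, at the promoters of CG4338 and Cp190. Of the pair at the internal promoter shared with CG45218, 376 was 640 bp and 180.1 was 436 bp from a Tm1 TSS. Only the summit of 180.1 is within the promoter limit. When the strongest candidates of replicate 1 alone were used, Tm1 had 0 promoter summits. An intronic summit of 307, 966 bp downstream of a TSS, lay at no other promoter. The tropomodulin gene tmod, whose product caps the pointed ends of actin filaments, had 4 IDR summits, none at the promoter of another gene. The summit 160 bp upstream of its most 5' TSS had 189 in the pooled list, with 68.5 in replicate 1 and 123 in replicate 2. The summit 372 bp upstream of an internal TSS had 300.4, with 131 in replicate 1 and 166 in replicate 2. The other summits, of 390.1 and 296, lay in introns 1467 and 1267 bp from the nearest TSS of the gene.

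In the troponin C and actin families, some genes had IDR summits and others had none. Of the 5 troponin C genes, which encode the calcium sensor, 1 had IDR summits: TpnC73F had 627 in its 3' UTR (258 in replicate 1 and 362 in replicate 2) and 237 at 201 bp upstream of a TSS. TpnC47D reached 122, at the promoters of CG9067 and Vhl, and TpnC25D 60.3, in an intron of tkv, with their strongest candidates, below the IDR limit. At its own promoter TpnC47D reached 109. TpnC4 and TpnC41C had no candidate in their windows. Of the 4 actin genes, Act57B had a summit of 587 at 4889 bp upstream of its TSS, with 244 in replicate 1 and 342 in replicate 2, and another of 209 at 4015 bp upstream, with 93.6 in replicate 1 and 121 in replicate 2. Act87E had 195 at 366 bp upstream of its TSS, with 140.0 in replicate 1 and no match in replicate 2, and 224 at 139 bp beyond its 3' end. With the strongest candidates of replicate 2 alone, Act87E had 0 promoter summits. Act79B reached 49.5 and Act88F, the actin gene of indirect flight muscle, had no candidate. Near-identical coding sequence in the actin genes could divide reads between them, and how the authors treated such reads is not given in the sources used here.

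Thick filament genes had 4 IDR summits in all, with a median signal of 240.0, against 233 for all IDR summits, and 7 of the 9 genes had none. Mhc, the muscle myosin heavy chain gene (chromosome 2L, 16766566 to 16788766, plus strand), had 14 pooled candidates and no IDR summit. Its strongest candidate lay 1 bp from a TSS with a pooled signal of 133 (55.8 in replicate 1 and 72.1 in replicate 2), and the next, 346 bp from another TSS, had 118. The essential and regulatory light chain genes Mlc1 and Mlc2 reached 112, at the promoter of RpS10a, and 99.5, at that of Rsod. At their own promoters they reached 93.1 and 81.2, and the Mlc2 candidate of 81.2 had no match in replicate 1. For the other thick filament proteins without an IDR summit, the highest candidate was 136 near fln (flightin), at the promoter of Nca and CG7646. The next were 119 for bt (projectin), 105 near Unc-89 (obscurin, of the M-line), at the promoter of CG3860, and 48.0 for Mf (myofilin). Of the 64 candidates of this group, 26 (40.6%) were in both replicate lists, against 45.5% of the whole pooled list.

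Prm and Strn-Mlck were the exceptions among thick filament genes, and none of their IDR summits lay inside the gene. Prm, encoding paramyosin of the filament core, had 224 at 2263 bp upstream and 179 at 4837 bp upstream, the weaker one at the promoter of CG13306. The stronger had 92.4 in replicate 1 and 137 in replicate 2. Strn-Mlck, which encodes the titin-like Stretchin, had 256 at 365 bp upstream of a TSS, in the 3' UTR of CG8314, with 127 in replicate 1 and 129 in replicate 2. Its stronger summit (749.6) lay 3015 bp upstream, at the promoters of CG8320 and Pex11ab.

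IDR summits were found near 6 of 7 Z-disc genes, at the promoters of 3 of them. The strongest was at the 5' end of Zasp52, whose PDZ and LIM domain product binds alpha-actinin. This summit lay 123 bp upstream of a TSS, in an intron of tun. Its signal was 803 in the pooled list, 325 in replicate 1 and 476 in replicate 2. Zasp66 had a single intronic summit of 197, and Zasp67 had no candidate. The titin-like gene sls had a summit of 219 upstream of its TSS, within the promoter limit, and one of 249.9 in an intron 689 bp downstream. Actn, encoding alpha-actinin, had 3 summits inside the gene, each more than 500 bp from its TSSs. The highest had 428, with 199 in replicate 1 and 226 in replicate 2, and the others 276 and 215, the weakest at the promoters of usp and CG4313. The muscle LIM protein genes differed in place: Mlp60A had 238 at 288 bp upstream of a TSS, and Mlp84B had 608 at 3804 bp beyond its 3' end, in an intron of Alh, with 298 in replicate 1 and 316 in replicate 2.

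Outside these groups, Msp300, the nesprin that ties nuclei to the muscle cytoskeleton, had 5 IDR summits over its 106126 bp and their flanks, at 205 to 408 in signal. Its single promoter summit (282, at 321 bp upstream of an internal TSS) had 58.0 in replicate 1 and 122 in replicate 2. SERCA, the calcium pump of the sarcoplasmic reticulum, had 212 at 541 bp from a TSS and 150.9 at the promoter of CG3735. The ratio of replicate 2 (118) to replicate 1 (37.6) at the weaker summit lay 2.77 SD from the median ratio of all IDR summits, the farthest of any member summit. The nearest summits to either side of the 500 bp limit were thus those of Tm1 at 436 bp and SERCA at 541 bp. At the IDR limit, the SERCA summit of 150.9 and the Ilk summit of 152 were inside, and candidates of Msp300 (148) and Tm1 (147) were outside.

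Nearly all member summits were found in both replicates. The 53 distinct IDR summits of members had a median pooled signal of 249.9, against 233 for all IDR summits, and 51 of 53 (96.2%) were in both replicate lists, against 95.1% of all. The median log2 ratio of replicate 2 to replicate 1 was 0.18 for members and 0.07 for all IDR summits, with SDs of 0.47 and 0.57 over summits, so the medians differed by less than the spread. Of the 51, 42 lay within 1 SD of the median ratio and 1 beyond 2 SD. Among all 3902 IDR summits in both lists, 2864 lay within 1 SD and 189 beyond 2 SD. The IDR summits were the 4105 strongest candidates called on these replicates together, and IDR itself compares the replicates. The shares found in both lists are thus a description and no independent check.

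**Figure D4:**
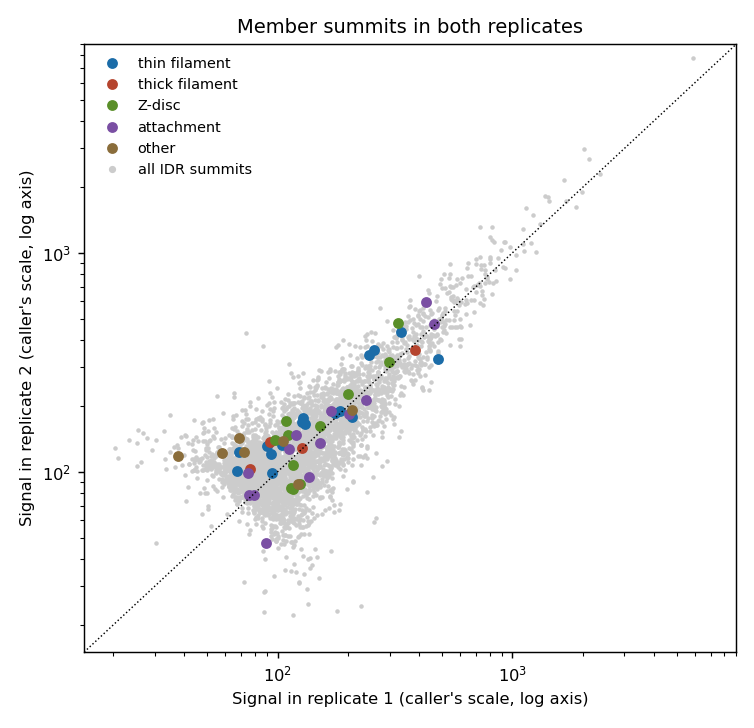
Signal in replicate 1 against replicate 2 for the member summits found in both lists, coloured by role group, over all IDR summits in grey, on log axes in the caller's units with a dotted line of equality. Of the rhea summits, those with pooled signals of 1020.0, 939.9 and 483 lie towards the upper end and the others amid the cloud, and the member furthest above the line is the SERCA summit with 37.6 in replicate 1 and 118 in replicate 2.

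Most member summits lay in introns or between genes. Introns held 24 of 53 (45.3% against 47.8% of all IDR summits), intergenic sequence 18 (34.0% against 32.4%) and 5' UTRs 7 (13.2% against 16.3%). Coding exons held 2 (3.77% against 2.73%) and 3' UTRs 2 (3.77% against 0.877%). At promoters, 15 of 17 member summits lay upstream of the nearest TSS of the gene, against 72.2% of gene and summit pairs over all genes, at a median distance of 237 bp against 144 bp. Median GC content within 50 bp was 40.6% for members and 39.6% for all IDR summits, but it ran from 17.8% at Act87E to 68.3% at tmod among members. Of the 53 summits, 14 were also at the promoter of a gene outside the list and 25 at no promoter at all. Of all 4105 IDR summits, 2072 were at a promoter of some gene and 2033 at none.

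A further 40 genes of the sarcomere, of excitation and contraction coupling and of muscle adhesion was counted in the same way. IDR promoter summits lay at 18 of 40 (45.0%), against the same background of 17.0%. In the window, 27 of 40 had an IDR summit, against 44.2%. These further genes were also longer, with a median of 15238.5 bp against 2163 bp for all genes. They had 2.575 TSSs each, against 1.40. Of their single TSSs, 23.3% had an IDR summit within 500 bp, against 15.8% for all genes. The part of gene length and TSS number in the counts of these further genes was not tested. The 4 strongest promoter summits were those of mew, an alpha-integrin gene (991, with 455 in replicate 1 and 529 in replicate 2), Jp, encoding junctophilin (787, with 294 and 488), Pax, encoding paxillin (714, with 410 and 306), and Tsp, encoding thrombospondin, a matrix ligand at tendons (567, with 226 and 342). The Pax summit was shared with Alp12 and CG13085. Density was 0.613 summits per 10 kb of window, against 0.458 for all genes. Its Poisson interval, 0.483 to 0.767, lies above the value of all genes but treats summits as independent, and no test was run.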

How the data were processed

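Per the deposited file listing, candidate peaks were called on each replicate and on both together with a shared control, and IDR peaks came from these candidates. Each deposited signal is the authors' value, on a scale they do not state. The deposited −log10 q values are capped and were not used. The aligner and the peak caller are not named in the labels or headers. Coordinates are 1-based dm6, per the labels. Genes came from Ensembl release 115 and bases from the Release 6 assembly (0 peaks exceeded its chromosome lengths).

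For each gene, summits within 500 bp of any TSS and within the gene plus 5000 bp were counted with Python 3.11.15, pandas 2.3.3 and scipy 1.17.1. Replicate summits matched within 100 bp. Annotation used protein-coding transcripts, in the order 5' UTR, coding exon, 3' UTR, intron. Counts were tried on simulated summits. Depth is unknown. No test was run, since there is 1 group and no second condition. Members, groups and lists were chosen with earlier results of these data known. The length and TSS classes were chosen after seeing the data. All 38 members were named, with further genes only for their 4 strongest promoter summits.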

Additional observations from a re-analysis of the deposited data

How the results depend on the processing

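Counts rest on the distance limits. With promoters of 250 bp, 10 members had an IDR promoter summit, of which 0 were thick filament and 1 a Z-disc gene, against 13.4% of all genes. With no flank, summits lay inside 12 members, 4 of them thin filament, 0 thick filament and 3 attachment genes, against 13.0% of all genes, and the density was 0.356 per 10 kb for members and 0 for thick filament genes. With a flank of 2000 bp, 1 thick filament gene had an IDR summit, against 31.4% of all genes. Among the stronger 50% of IDR summits, 4 thin filament promoters (9.7% of all genes) and 1 thick filament window (29% of all genes) held one, and the member density was 0.313. Without summits at another gene's promoter, a setting chosen after seeing the data, the density was 0.370 for members and 0.492 for attachment genes. The density of all genes under these changed settings is not given here. Whether members changed relative to other genes thus cannot be read from these densities. TATTTA lay within 25 bp of 11.3% and within 100 bp of 39.6% of member summits (13.2% and 37.5% of all IDR summits). GAGAGA lay within 25 bp of 0% of member summits and 4.41% of all IDR summits. The other 183 comparisons of these results stayed within 1.5 times the count or within the interval of the value. With the strongest candidates of replicate 2 alone, 15 members had a promoter summit, against 16.9% of all genes, and 24 a window summit, against 43.4%. For replicate 1 alone these were 17 members, against 17.3%, and 25, against 44.9%. Canonical TSSs alone gave 11 promoters, against 14.5% of all genes, without those of Tm1, Tm2, Zasp52, rhea and Msp300. No paired analysis was possible because there is a single group. Unknown depth and 2 replicates limit all values.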
